A study of Mus musculus with 6 samples.

Results

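The genes described here are 10 genes of bone morphogenetic protein (BMP) signalling in mouse muscle satellite cells (SCs), the resident stem cells of skeletal muscle. They are the 4 Id genes (*Id1*, *Id2*, *Id3* and *Id4*), the ligand gene *Bmp4*, the protease gene *Bmp1*, the receptor genes *Bmpr1a* and *Bmpr2*, and the inhibitory Smad genes *Smad6* and *Smad7*. They were chosen by name, and each name matched 1 row, so that 10 of the 55416 genes of the deposited table are described. RNA was sequenced from 3 WT and 3 *Ltf*-KO libraries, which were compared to ask how loss of lactoferrin changes SCs. The knockout is systemic: CRISPR-Cas9 in C57/BL6N zygotes removed several exons of *Ltf*, the gene of the secreted iron-binding glycoprotein lactoferrin, from all tissues. In both genotypes the cells were hind-leg SCs of adult mice, sorted as Sca1-/CD11b-/CD34+/α7-integrin+, and harvested on day 4 of growth culture without treatment. Both genotypes received the same medium, with fetal bovine serum, chick embryo extract and basic fibroblast growth factor, on Matrigel. The labels do not say whether the 3 libraries of a genotype came from separate mice, so the p-values measure only the spread between these samples.

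BMP ligands bind pairs of type I and type II receptor kinases, which phosphorylate the Smad1, Smad5 and Smad9 proteins. These join Smad4 in the nucleus and switch on target genes, of which the Id genes and *Smad6* are the best known, and Smad6 and Smad7 in turn block the receptors. Id proteins have a helix-loop-helix domain but no DNA-binding region, and they hold E proteins away from MyoD and the other myogenic factors. In muscle, BMP signalling is known to favour growth of SC descendants over differentiation.

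The regions before the starts of 5 of these genes are printed for reference, and no result between genotypes is drawn from them. *Bmp4* had the largest difference between genotypes, *Id2* and *Id3* are abundant members of the Id family and *Id4* its scarce member, and *Smad6* is an inhibitor that BMP signalling induces. RefSeq promoter windows (build GRCm38.p6) matched 7 of the 10 genes, and *Id1* was not among these. Each window runs from 250 bases before the annotated start to 10 bases after it, 5′ to 3′ on the strand of the gene. Capitals mark GGCGCC, a GC-rich element of the kind described for Smad1 and Smad5, and GTCT or its reverse complement AGAC, the short Smad-binding element. Where these directly follow each other they form the palindrome GTCTAGAC. *Bmp4* is on the minus strand at chr14:46390660-46390919, *Id2* on the minus strand at chr12:25096083-25096342, *Id3* on the plus strand at chr4:136143572-136143831, *Id4* on the plus strand at chr13:48260866-48261125 and *Smad6* on the minus strand at chr9:64022050-64022309.
Bmp4: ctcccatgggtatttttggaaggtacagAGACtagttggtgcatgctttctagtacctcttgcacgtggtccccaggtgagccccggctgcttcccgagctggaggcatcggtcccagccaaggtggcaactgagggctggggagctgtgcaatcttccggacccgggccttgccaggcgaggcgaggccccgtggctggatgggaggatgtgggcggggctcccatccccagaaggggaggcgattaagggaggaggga
Id2: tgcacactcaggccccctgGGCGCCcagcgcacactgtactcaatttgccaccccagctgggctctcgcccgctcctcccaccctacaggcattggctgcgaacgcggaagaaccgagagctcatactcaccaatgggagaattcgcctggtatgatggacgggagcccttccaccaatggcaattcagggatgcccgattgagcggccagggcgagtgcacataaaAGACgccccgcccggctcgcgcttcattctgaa
Id3: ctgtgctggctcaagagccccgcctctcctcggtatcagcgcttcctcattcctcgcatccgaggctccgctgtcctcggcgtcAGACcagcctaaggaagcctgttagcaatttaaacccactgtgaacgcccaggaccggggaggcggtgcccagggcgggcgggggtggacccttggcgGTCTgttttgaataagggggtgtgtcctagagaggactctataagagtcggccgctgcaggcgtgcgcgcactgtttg
Id4: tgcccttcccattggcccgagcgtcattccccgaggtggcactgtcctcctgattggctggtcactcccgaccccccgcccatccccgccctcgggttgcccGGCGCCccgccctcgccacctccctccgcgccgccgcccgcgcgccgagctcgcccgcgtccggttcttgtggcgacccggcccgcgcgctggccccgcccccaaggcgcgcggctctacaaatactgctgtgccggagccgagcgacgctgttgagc
Smad6: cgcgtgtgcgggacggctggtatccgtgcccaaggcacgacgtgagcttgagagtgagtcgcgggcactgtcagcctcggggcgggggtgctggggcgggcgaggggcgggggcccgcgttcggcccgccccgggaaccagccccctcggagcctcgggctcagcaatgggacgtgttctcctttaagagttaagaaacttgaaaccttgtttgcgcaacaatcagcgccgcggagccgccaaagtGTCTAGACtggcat

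GGCGCC, which reads the same on both strands, lay 231 bases before the start in *Id2* and 148 bases before it in *Id4*. It also lay in the windows of *Bmpr1a* and *Bmpr2*, so 4 of the 7 windows held it, against 9.96% of all 32851 windows. GTCTAGAC lay across the start of *Smad6*, beginning 4 bases before it, and 0.177% of all windows held it. GTCT or AGAC was in 4 of the 7 windows, a smaller share than the 84.0% of all windows, so its presence in *Bmp4*, *Id2*, *Id3* and *Smad6* is common. The windows of all genes were not matched to the 7 for base composition. Distances are from the RefSeq starts. The windows of *Id2* and *Id3* lie wholly within the longer spans that GENCODE M21 gives for these genes. All of these motifs are matches of letters and no measurement of binding.

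The authors deposited TPM values, that is reads divided by gene length and scaled to a common total per library, so levels can be compared between genes but the depth behind them is unknown. The totals were 993650 to 994356 TPM per library, and 12828 to 12951 genes reached 1 TPM. *Ltf* itself was listed at 0.12 TPM or less in every library of both genotypes, so its level does not check the labels. Markers of the sorted cells were present in all libraries. The 12 satellite cell and myoblast markers summed to 2622 to 2694 TPM in WT and 2674 to 2712 TPM in *Ltf*-KO libraries, although *Calcr*, a marker of quiescent SCs, was at 0.07 TPM or less. Among the leukocyte markers, *Ptprc* and *Itgam* stayed at or under 0.16 TPM, but *Cd68* was at 3.12 to 3.98 TPM. *S100a8* reached 1.54 TPM and *Tyrobp* 1.03 TPM in WT replicate 1. Marker sums of other cell types are given beside *Bmp4* below. *Ltf*-KO was compared with WT by limma on log2(TPM + 1) for 12956 genes, those averaging 1 TPM or more over the 6 libraries. Fold changes below are on this scale, which understates the change of low genes, and all 10 genes passed this filter.

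Between genotypes, *Bmp4* was the only gene of the 10 with an unadjusted p under 0.05, and it was lower in *Ltf*-KO SCs. For the other 9 genes the 95% confidence interval of the log2 fold change included 0. After Benjamini-Hochberg adjustment over all tested genes, 0 of the 10 genes had a limma adjusted p under 0.05, as did 0% of all genes tested. The 1 gene of 10 at an unadjusted p under 0.05 stands beside 3.78% of all tested genes. The libraries of the genotypes did not overlap for 2 of the 10 genes, *Bmp4* and *Bmpr2*, and for 8.46% of all tested genes. The median log2 fold change of the 10 genes was 0.06, and 7 of them were above 0, while the median of all tested genes was 0.011 and 55.7% of these were above 0.

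**Figure D1:**
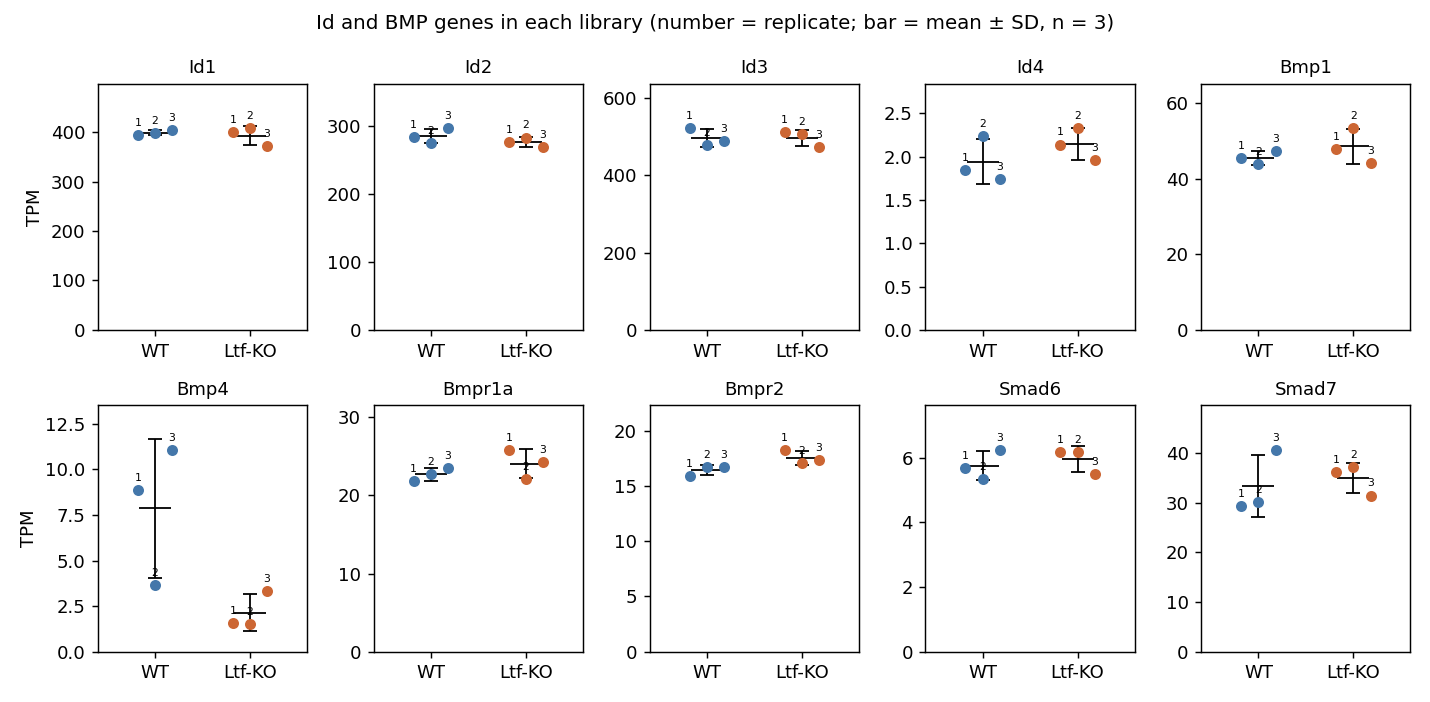
TPM of each of the 10 genes (vertical axes, from 0) in the 3 WT (blue) and 3 *Ltf*-KO (orange) libraries, with replicate numbers beside the points and bars for the mean ± SD. *Bmp4* lies at 3.66 TPM or more in WT and at 3.31 TPM or less in *Ltf*-KO, while the points of *Id1*, *Id2* and *Id3* lie close together in both genotypes.

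*Bmp4* encodes a BMP ligand that signals through Bmpr1a and Bmpr2. It was at 8.87, 3.66 and 11.08 TPM in WT replicates 1, 2 and 3, and at 1.58, 1.53 and 3.31 TPM in *Ltf*-KO replicates 1, 2 and 3. Every WT library was above every *Ltf*-KO library, but WT replicate 2, at 3.66 TPM, lay close to *Ltf*-KO replicate 3, at 3.31 TPM. The WT mean was 7.87 ± 3.81 TPM and the *Ltf*-KO mean 2.14 ± 1.01 TPM (SD, n = 3 each), a ratio of 3.68 between WT and *Ltf*-KO. The coefficient of variation among replicates was 48.4% in WT and 47.4% in *Ltf*-KO, the widest of the 10 genes in each genotype. The log2 fold change was -1.43 (standard error 0.39, 95% confidence interval -2.37 to -0.50), with a limma unadjusted p of 0.00897 and an adjusted p of 0.999. By unadjusted p it ranked 88 of 12956 genes. An exact two-sided permutation test of *Bmp4* gave p = 0.1, the smallest that 3 libraries against 3 allow. With any 1 library left out its log2 fold change stayed between -1.84 and -1.16. The limma unadjusted p was at most 0.0389 in each of the 12 alternatives in which the gene was tested, and the adjusted p was at least 0.785. In bulk libraries, fewer cells that express a gene and less of its RNA per cell cannot be told apart.

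In the GENCODE M21 annotation of GRCm38, *Bmp4* (ENSMUSG00000021835) is a protein-coding gene on the minus strand of chromosome 14 from 46383520 to 46390669. The submitters' processing notes list GRCm39, so this position is given for orientation only. Antisense genes *Gm15217* and *Gm15222* overlap it, and whether the counting used strand is not given in the sources used here. *Gm15217* was listed at 0 TPM in all 6 libraries. *Gm15222* was listed at 0.04, 0.08 and 0.04 TPM in WT and at 0.19, 0.13 and 0.16 TPM in *Ltf*-KO libraries, far below *Bmp4* and too low to be tested.

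Of 13 other BMP ligand genes, only *Gdf6* averaged 1 TPM or more. *Gdf6*, a growth factor of joint and bone development, was at 3.55 ± 0.142 TPM in WT and 4.11 ± 0.387 TPM in *Ltf*-KO (SD, n = 3 each). Its log2 fold change was 0.17, with a limma unadjusted p of 0.135. *Bmp2* was at 0.76 ± 0.165 and 0.897 ± 0.33 TPM (SD, n = 3 each) in WT and *Ltf*-KO, and *Bmp10* and *Gdf2* were at 0 in every library. *Bmp4* therefore made up 63.7%, 42.4% and 65.7% of the summed TPM of the 14 ligands in WT replicates 1, 2 and 3, and 18.9%, 19.7% and 36.6% in *Ltf*-KO replicates 1, 2 and 3. The sum of the other 13 ligands was 4.98 to 5.78 TPM in WT and 5.73 to 6.78 TPM in *Ltf*-KO libraries.

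Libraries can also differ in the share of other cells, so *Bmp4* was set beside marker lists. *Bmp4* was lowest in *Ltf*-KO replicates 1 and 2, at 1.58 and 1.53 TPM. The 7 endothelial markers summed to 16.5 and 17.98 TPM there, close to the 18.2 TPM of WT replicate 3, where *Bmp4* was highest. The lowest endothelial sum was 8.9 TPM, in WT replicate 2. Over the groups, these sums were 8.9 to 18.2 TPM in WT and 9.98 to 17.98 TPM in *Ltf*-KO libraries. Of the 5 tested genes of this list, 3 had a log2 fold change above 0 and 2 below. *Cdh5*, the endothelial cadherin, was at 2.89 ± 1.48 TPM in WT and 3.62 ± 1.64 TPM in *Ltf*-KO (SD, n = 3 each). *Vwf* went the other way, at 2.71 ± 0.915 and 1.997 ± 0.212 TPM (SD, n = 3 each), and the log2 fold change of *Kdr* was -0.055. The 9 fibroblast markers summed to 106 to 111 TPM in WT and 106 to 139 TPM in *Ltf*-KO libraries, mostly from *Col3a1*. Of these markers, 7 of the 7 tested had a log2 fold change above 0, beside 55.7% of all tested genes. The 6 Schwann cell markers summed to 14.25 to 26.4 TPM in WT and 16.6 to 23.4 TPM in *Ltf*-KO libraries. The 9 leukocyte markers summed to 4.9 to 7.07 TPM in WT and 3.36 to 5.22 TPM in *Ltf*-KO libraries, the largest part from *Cd68*, with 6 of the 9 under 1 TPM in every library. *Cd68*, the 1 tested gene of this list, was at 3.56 to 3.98 TPM in WT and 3.12 to 3.52 TPM in *Ltf*-KO libraries. These did not overlap, beside 8.46% of all tested genes without overlap, and the log2 fold change was -0.11 (limma unadjusted p = 0.276). The 7 smooth muscle and pericyte markers summed to 903 to 1033 TPM in WT and 949 to 1137 TPM in *Ltf*-KO libraries, nearly all of it from *Acta2* and from *Des*, a muscle gene that is also in the satellite cell and myoblast list. *Rgs5*, *Myh11* and *Kcnj8* of this list stayed under 1 TPM in every library. The part of these cells in the difference of *Bmp4* was not tested.

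**Figure D2:**
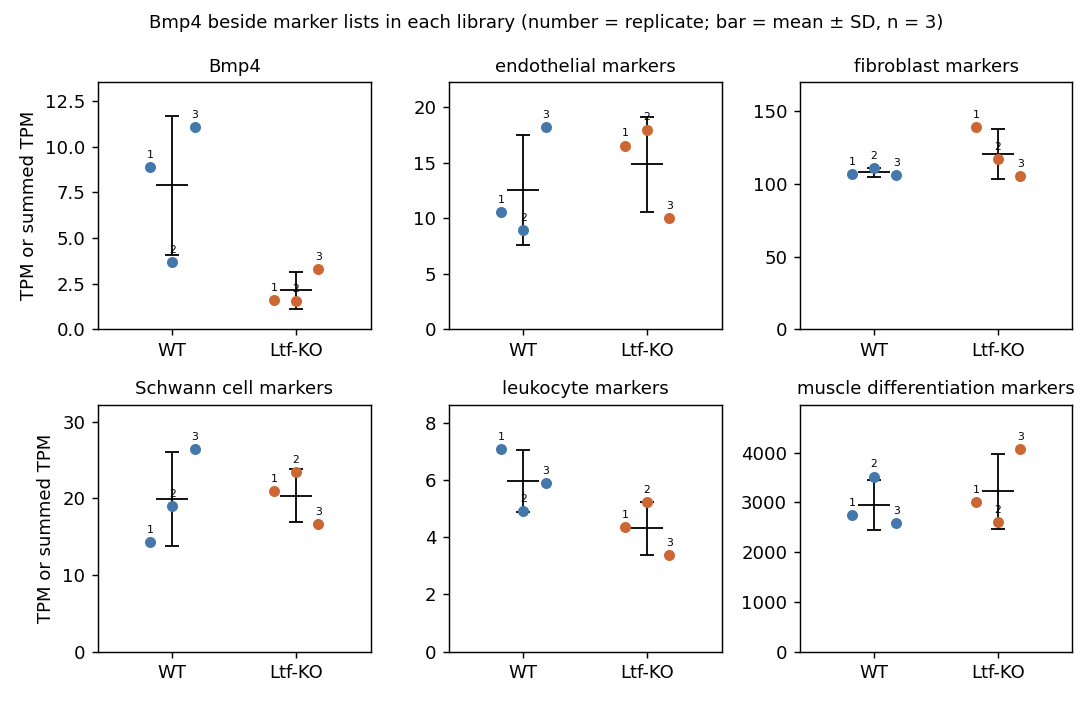
TPM of *Bmp4* and summed TPM of 5 marker lists (vertical axes, from 0) in the 3 WT (blue) and 3 *Ltf*-KO (orange) libraries, with replicate numbers beside the points and bars for the mean ± SD. The WT and *Ltf*-KO points of every list overlap, and *Ltf*-KO replicates 1 and 2, at the bottom for *Bmp4*, are near the top for the endothelial list.

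The Id genes are known targets of BMP signalling, and 3 of the 4 were abundant. *Id3* was at 522, 477 and 488 TPM in WT and at 512, 506 and 473 TPM in *Ltf*-KO replicates 1, 2 and 3. The ranges overlapped and the log2 fold change was 0.0028 (95% confidence interval -0.11 to 0.12), that is a ratio between 0.925 and 1.08. Its sign turned under quantile normalization and median-of-ratios scaling, so no direction is given.

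*Id1* was at 394, 399 and 404 TPM in WT and at 399.7, 408 and 371 TPM in *Ltf*-KO replicates 1, 2 and 3. *Ltf*-KO replicate 3 was the lowest of the 6 libraries and *Ltf*-KO replicate 2 the highest. The log2 fold change was -0.022 (95% confidence interval -0.12 to 0.078), a ratio between 0.919 and 1.06, and it was 0.018 without *Ltf*-KO replicate 3. *Id2* was at 283, 275 and 296 TPM in WT and at 276, 282 and 268 TPM in *Ltf*-KO replicates 1, 2 and 3. The groups overlapped, and the fitted log2 difference was -0.047 (95% confidence interval -0.14 to 0.048). *Id4*, which is best known from the nervous system, was scarce, at 1.85, 2.24 and 1.74 TPM in WT and 2.14, 2.33 and 1.96 TPM in *Ltf*-KO replicates 1, 2 and 3. Its log2 fold change was 0.097, and the interval of -0.21 to 0.41 was the widest of the family. The limma unadjusted p was at least 0.277 for all 4 Id genes. The intervals of *Id1*, *Id2* and *Id3* leave out changes of the size seen for *Bmp4*.

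The 4 Id genes together summed to 1181 ± 25.3 TPM in WT and 1167 ± 46.5 TPM in *Ltf*-KO (SD, n = 3 each). The E protein genes *Tcf3*, *Tcf4* and *Tcf12*, whose products Id proteins bind, summed to 205 ± 7.67 and 214 ± 2.16 TPM (SD, n = 3 each). At the RNA level there were thus 5.26 to 6.05 Id transcripts for each E protein transcript in the 6 libraries, with a mean of 5.77 ± 0.308 in WT and 5.45 ± 0.168 in *Ltf*-KO (SD, n = 3 each). Against the 4 myogenic factor genes *Myf5*, *Myod1*, *Myog* and *Myf6* the ratio was 0.951 ± 0.0496 in WT and 0.914 ± 0.0934 in *Ltf*-KO (SD, n = 3 each). *Myod1*, the most abundant of these, was at 778 ± 34.6 and 779.9 ± 30.1 TPM (SD, n = 3 each), and *Myog*, which marks the onset of differentiation, at 341 ± 61.4 and 378 ± 122 TPM (SD, n = 3 each). Of the 7 E protein and myogenic factor genes, 0 had a limma unadjusted p under 0.05 in either direction.

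Id levels were also set beside differentiation, which Id proteins are known to oppose. The Id sum was lowest in *Ltf*-KO replicate 3, at 1114 TPM, and next in WT replicate 2, at 1153 TPM. In the other 4 libraries it was 1190 to 1201 TPM. The same 2 libraries had the highest sums of 10 muscle differentiation markers, 4069 TPM in *Ltf*-KO replicate 3 and 3522 TPM in WT replicate 2, against 2591 to 3002 TPM in the others. All 10 of these markers had a log2 fold change above 0, beside 55.7% of all tested genes. Their median was 0.14, and 0 had a limma unadjusted p under 0.05. The sums of *Ltf*-KO replicates 1 and 2, 3002 and 2610 TPM, lay within the WT range of 2591 to 3522 TPM. The part of these markers in the Id levels was not tested.

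*Smad6* and *Smad7* encode the inhibitory Smads. *Smad6* was at 5.68, 5.33 and 6.24 TPM in WT and at 6.18, 6.18 and 5.48 TPM in *Ltf*-KO replicates 1, 2 and 3. Its groups overlapped, and the fitted log2 difference was 0.042 (95% confidence interval -0.17 to 0.26, limma unadjusted p = 0.652). *Smad7* was at 29.4, 30.1 and 40.7 TPM in WT and at 36.2, 37.3 and 31.5 TPM in *Ltf*-KO replicates 1, 2 and 3. WT replicate 3 was above all other libraries and the groups overlapped. The log2 fold change was 0.078 (95% confidence interval -0.24 to 0.40, limma unadjusted p = 0.583). This value moved with most single libraries. Without WT replicate 3 the log2 fold change was 0.22, with a limma unadjusted p of 0.0444 and an adjusted p of 1. It was -0.0040 without WT replicate 1, 0.013 without WT replicate 2, 0.031 without *Ltf*-KO replicate 2, 0.052 without *Ltf*-KO replicate 1 and 0.15 without *Ltf*-KO replicate 3.

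Both inhibitory Smads were highest in the same 3 libraries, WT replicate 3 and *Ltf*-KO replicates 1 and 2. Across the 6 libraries the Pearson correlation of *Smad6* with *Smad7* was 0.90 (exact permutation p = 0.0528, adjusted p = 0.577 over 15 pairs) and Spearman's rho was 0.81 (exact permutation p = 0.0722, adjusted p = 0.458). Without the 2 libraries farthest from the median of *Smad6* the Pearson correlation was 0.96. The same 3 libraries also had the highest endothelial marker sums, 18.2, 16.5 and 17.98 TPM against 8.9 to 10.5 TPM in the others, and the part of endothelial RNA in the Smad levels was not tested. Of the 15 pairs among *Id1*, *Id2*, *Id3*, *Id4*, *Smad6* and *Smad7*, 11 had a positive Pearson correlation, and 0 had an exact permutation p under 0.05, adjusted or not. The other pairs ranged from -0.48 for *Id2* with *Id4* (exact permutation p = 0.335) to 0.68 for *Id1* with *Id2* (exact permutation p = 0.168). Centred within genotype, *Id2* correlated at 0.95 with *Smad6* and at 0.90 with *Smad7*, the largest and next largest of the 15 centred values. Uncentred over the 6 libraries, these pairs were at 0.64 and 0.63 (exact permutation p = 0.167 and 0.194). After centring, 0 of the 15 pairs had an adjusted p under 0.05, by a permutation that does not allow for the centring.

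Both receptor genes were expressed in all libraries. *Bmpr1a*, a type I receptor kinase that binds BMP2 and BMP4, was at 21.8, 22.75 and 23.5 TPM in WT and at 25.85, 22.1 and 24.2 TPM in *Ltf*-KO replicates 1, 2 and 3. The groups overlapped in *Ltf*-KO replicate 2, and the log2 fold change was 0.079 (95% confidence interval -0.086 to 0.24). *Bmpr2*, the type II receptor, was at 15.9, 16.7 and 16.7 TPM in WT and at 18.3, 17.1 and 17.3 TPM in *Ltf*-KO replicates 1, 2 and 3. Every *Ltf*-KO library was above every WT library, by a small margin. The means differed by 6.82%, and the fitted log2 difference was 0.09 (95% confidence interval -0.039 to 0.22, limma unadjusted p = 0.141, adjusted p = 0.999). The exact permutation p of *Bmpr2* was 0.1, the smallest possible here.

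Among 11 other receptor and co-receptor genes, 9 were tested and 0 had a limma unadjusted p under 0.05. The type I receptor gene *Acvr1* was the most abundant of all BMP receptor genes at 45.2 ± 0.695 TPM in WT and 47.98 ± 1.37 TPM in *Ltf*-KO (SD, n = 3 each), with a log2 fold change of 0.085 (limma unadjusted p = 0.0827). *Rgmb*, a BMP co-receptor, was at 10.6 ± 0.456 and 11.7 ± 0.214 TPM (SD, n = 3 each), with a log2 fold change of 0.13 (limma unadjusted p = 0.0608). *Acvr1*, *Rgmb* and *Acvr2a* were the 3 of the 9 whose libraries did not overlap, all 3 higher in *Ltf*-KO, beside 8.46% of all tested genes without overlap. The median log2 fold change of the 9 genes was 0.091. *Bmpr1b*, another BMP type I receptor gene, was at 4.25 ± 0.82 and 4.56 ± 0.572 TPM (SD, n = 3 each).

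**Figure D3:**
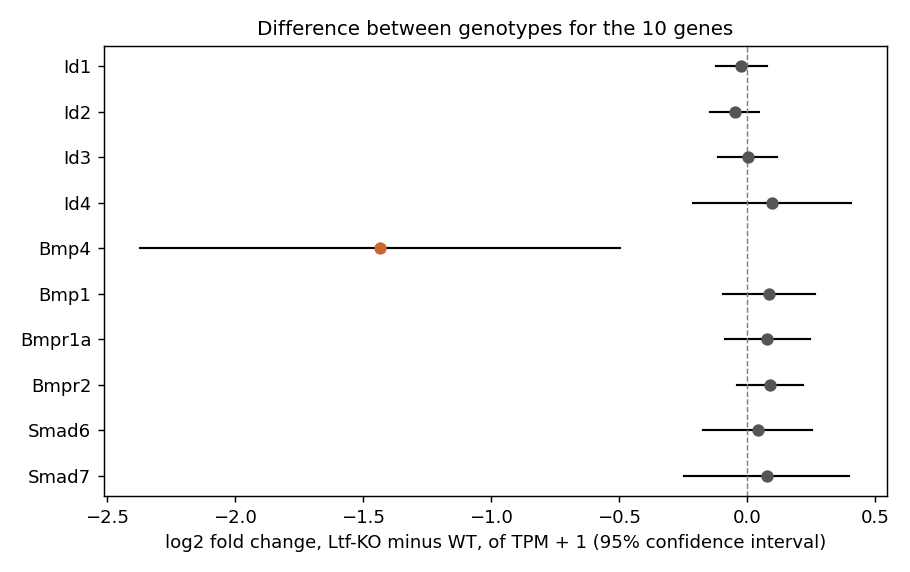
Log2 fold change of TPM + 1, *Ltf*-KO minus WT (horizontal axis), for the 10 genes (vertical axis), with 95% confidence intervals from limma as lines. The interval of *Bmp4* runs from -2.37 to -0.50, and the intervals of the other 9 genes include 0.

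*Bmp1* differs in kind from the rest, since it encodes a secreted metalloproteinase that trims procollagens and cleaves the BMP antagonist chordin, and is no BMP ligand. It was at 45.45, 43.7 and 47.2 TPM in WT and at 47.9, 53.3 and 44.2 TPM in *Ltf*-KO replicates 1, 2 and 3. *Ltf*-KO replicate 2 was the highest library and the groups overlapped, and the fitted log2 difference was 0.087 (95% confidence interval -0.092 to 0.27, limma unadjusted p = 0.284). Of 7 related protease and processing genes, 4 were tested and 0 had a limma unadjusted p under 0.05. The most abundant of them was *Furin*, a protease that matures BMP precursors, at 70.02 ± 1.74 and 73.3 ± 2.82 TPM (SD, n = 3 each), followed by *Pcolce*, an enhancer of Bmp1, at 45.2 ± 0.978 and 48.5 ± 3.04 TPM (SD, n = 3 each).

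Some genes listed here as extracellular BMP antagonists were far more abundant than the ligands. Of the 16 genes of this list, 11 were tested, and 0 had a limma unadjusted p under 0.05. *Nbl1* was at 98.3 ± 4.97 TPM in WT and 101 ± 4.12 TPM in *Ltf*-KO, and *Grem1* at 79.7 ± 13 and 86.4 ± 19.3 TPM (SD, n = 3 each). *Nog*, which encodes the BMP4 antagonist noggin, was at 6.99 ± 1.71 and 7.81 ± 2.76 TPM (SD, n = 3 each). The *Bmp4* to *Nog* ratio was 0.997, 0.567 and 1.98 in WT and 0.148, 0.203 and 0.637 in *Ltf*-KO replicates 1, 2 and 3, so these groups overlapped. All 11 tested genes of this list had a log2 fold change above 0, with a median of 0.11 and a largest value of 0.34 for *Dand5*, beside 55.7% of all tested genes. The count above 0 was also 11 under quantile normalization and median-of-ratios scaling, and it was 9 to 11 with 1 library left out. These genes are read from the same libraries and none passed the test singly.

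Signalling Smads and other target genes showed no call either. Of 17 signalling Smad and regulator genes, all were tested and 0 had a limma unadjusted p under 0.05. *Smad1* was at 23.99 ± 1.44 and 24.99 ± 0.851 TPM, *Smad5* at 24.8 ± 1.14 and 22.95 ± 0.583 TPM and *Smad4* at 39.6 ± 0.802 and 37.04 ± 2.81 TPM in WT and *Ltf*-KO (SD, n = 3 each). *Smad5* was the 1 gene of this list whose libraries did not overlap, with a log2 fold change of -0.11 (limma unadjusted p = 0.0895), and 1 of 17 is a smaller share than the 8.46% of all tested genes without overlap. *Fkbp1a*, whose product keeps type I receptors inactive, was the most abundant at 357 ± 11.99 and 368 ± 20.2 TPM (SD, n = 3 each). Of 14 other BMP target genes, 7 were tested and 0 had a limma unadjusted p under 0.05. *Runx2*, a bone transcription factor gene, was at 65.4 ± 3.54 and 62.4 ± 2.9 TPM, and *Gata2* at 62.9 ± 8.91 and 59.01 ± 2.4 TPM (SD, n = 3 each). *Hamp*, the liver target of BMP signalling, was at 0 in all libraries. Over all 85 genes of these lists, 56 were tested, 40 were above 0, and their median log2 fold change was 0.063. Of all tested genes 55.7% were above 0, with a median of 0.011. The 40 include the 11 antagonist genes above, and the count was 37 under quantile normalization and under median-of-ratios scaling. Of the genes that the deposited table annotates with the BMP signaling pathway term or the TGF-beta pathway, leaving out the 10 genes, 32 and 62 were tested and 0 had a limma unadjusted p under 0.05.

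**Figure D4:**
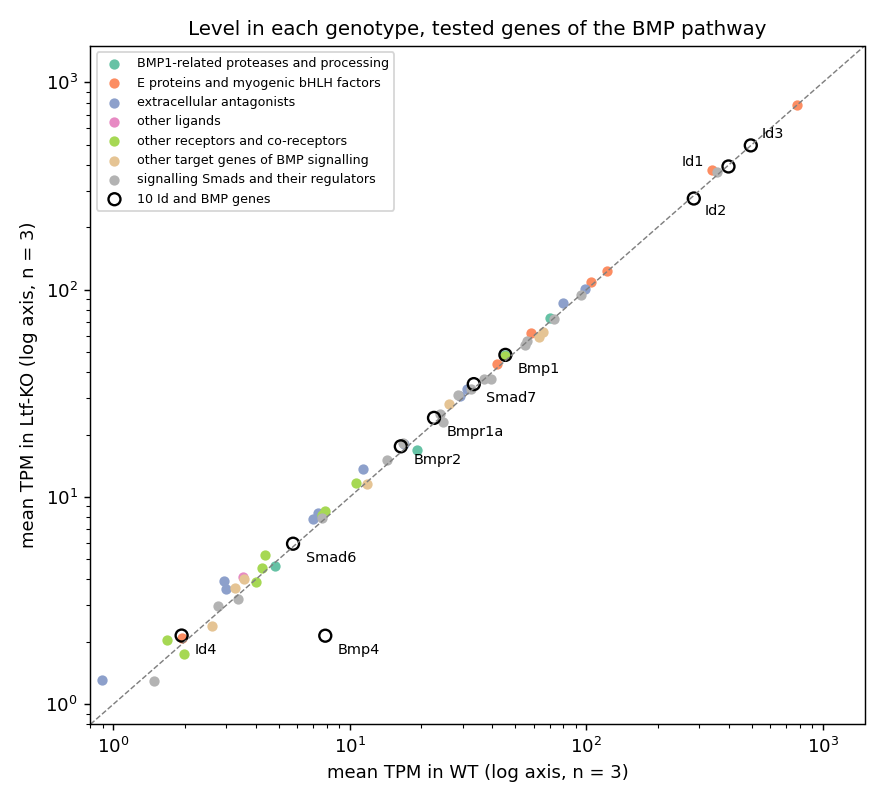
Mean TPM in *Ltf*-KO (vertical, log axis) against mean TPM in WT (horizontal, log axis), n = 3 libraries each, for the 10 genes (named rings) and the tested genes of the wider BMP lists (coloured by list), with a dashed line where both are equal. *Bmp4*, at 7.87 and 2.14 TPM, lies well below the line, while the other 9 genes lie near it over a range from *Id4* at 1.94 TPM to *Id3* at 496 TPM in WT.

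Since TPM is per length, the 10 genes can be ordered by level over the 6 libraries. The order of mean TPM was *Id3* (496), *Id1* (396), *Id2* (280.03), *Bmp1* (46.96), *Smad7* (34.2), *Bmpr1a* (23.4), *Bmpr2* (16.98), *Smad6* (5.85), *Bmp4* (5.005) and *Id4* (2.04). For 7 of the 9 neighbouring pairs the ranges did not overlap and the order held in all 6 libraries (exact two-sided sign-flip permutation p = 0.0312, the smallest that 6 libraries allow, adjusted p = 0.0402 over 9 pairs). The exceptions were *Smad6* over *Bmp4*, which held in 4 of 6 libraries (exact sign-flip permutation p = 0.312), and *Bmp4* over *Id4*, in 4 of 6 libraries (exact sign-flip permutation p = 0.188). The pairs and their order were set by the mean TPM of these same 6 libraries, so the p-values are no separate support for the order. *Bmp4* was above *Id4* in every WT library and in *Ltf*-KO replicate 3, and below it in *Ltf*-KO replicates 1 and 2. The step from *Id2* to *Bmp1*, a ratio of 5.96, was the largest between neighbours, so the 3 abundant Id genes stood apart from the ligand, receptor and inhibitor genes.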

How the data were processed

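RNA was sequenced from 3 WT and 3 *Ltf*-KO libraries of SCs. The authors deposited 1 table of TPM values with 2 decimals, 1 column per library; the unit is taken from the near-equal column totals. The submitters' processing notes list GRCm39. The aligner, counter, annotation and strand setting are not given in the sources used here. No counts are held, so no interval from counting was computed.

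The 10 genes, the lists and the tests were chosen with earlier results of these data known. All genes averaging 1 TPM or more were fitted with limma 3.58.1 in R 4.3.3 (lmFit, eBayes with a variance trend, two-sided, Benjamini-Hochberg over 12956 genes) on log2(TPM + 1), pseudocount 1, threshold 0.05, without covariates. The fit was tested on simulated data. Correlations (genotypes pooled) and neighbouring levels used exact permutation tests. Genes named were the 10 genes, *Ltf*, list genes at an unadjusted p under 0.05 or the most abundant of each list, the 5 genes most like *Id1*, and marker genes; others (such as *Nog*, *Rgmb*, *Acvr2a*, *Dand5*, *Bmp2*, *Bmpr1b*, the signalling Smads, *Cdh5* and genes overlapping *Bmp4*) were named after their values were seen. Alternatives were pseudocount 0.1, no filter, a minimum mean of 10 TPM, quantile normalization, median-of-ratios scaling, the replicate block, no variance trend and each library left out. The values of 1 gene of the wider lists are not reported here.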

Additional observations from a re-analysis of the deposited data

How the results depend on the processing

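The 10 genes were refitted under 13 alternatives. Of 127 log2 fold changes, 118 kept their direction and their side of the adjusted threshold and 9 changed sign, all of them close to 0. *Id3* changed sign with quantile normalization (-0.0023) and median-of-ratios scaling (-0.0076). With 1 library left out, *Id3* ranged from -0.024 to 0.0402, *Id1* from -0.0504 to 0.018, *Smad6* from -0.0033 to 0.094 and *Smad7* from -0.0040 to 0.22. Without a change of sign, *Id2* was -0.073 when WT replicate 2 and -0.018 when WT replicate 3 was left out, *Id4* was 0.047 when WT replicate 3 and 0.17 when WT replicate 2 was left out, *Bmp1* ranged from 0.017 (without *Ltf*-KO replicate 2) to 0.15 (without *Ltf*-KO replicate 3) and *Bmpr1a* from 0.028 (without *Ltf*-KO replicate 1) to 0.14 (without *Ltf*-KO replicate 2). The cause was not tested. The count of the 10 genes at an adjusted p under 0.05 was 0 under all 13 alternatives. Without adjustment, 1 gene had a p under 0.05, and 0 when a minimum mean of 10 TPM was set, where *Bmp4* was not tested. With 1 library left out it was 1 to 2, and 2 without WT replicate 3, which added *Smad7*. Of the wider BMP lists 0 genes had an unadjusted p under 0.05, and 1 with no filter (*Acvr1*) and 1 with no variance trend (*Rgmb*). With 1 library left out this was 0 to 3: 1 without WT replicate 2 (*Sost*) or WT replicate 3 (*Smurf2*), 2 without *Ltf*-KO replicate 2 (*Pcolce*, *Atoh8*) and 3 without *Ltf*-KO replicate 3 (among them *Smad4* and *Bmper*). With 1 library left out in turn, 7 of 9 neighbouring levels kept their order in every remaining library. The read depth behind *Bmp4*, *Smad6* and *Id4*, which are low, is unknown, so their precision rests on 3 libraries a group.

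The labels number both genotypes 1 to 3 and do not say whether same-numbered libraries were handled together. Across genes, same-numbered libraries did not deviate together (correlations -0.041, -0.058 and -0.088). *Bmp4*, however, was highest in replicate 3 and lowest in replicate 2 of both genotypes. Whether same-numbered libraries share a batch was not tested. With the replicate block, 0 of the 10 genes passed at an adjusted p of 0.05 by limma. *Bmp4* was again the 1 gene of the 10 under 0.05 without adjustment (limma unadjusted p = 0.00195), and of the wider lists 0 genes were.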

Other observations

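Of 8071 other genes averaging 10 TPM or more, the 5 whose log2(TPM + 1) followed *Id1* most closely over the 6 libraries were *Iffo2* (Pearson correlation 0.993), *D16Ertd472e* (0.993), *Phf6* (0.99), *Ankrd1* (0.99) and *Cars* (0.982). *Ankrd1*, a muscle ankyrin repeat gene, was at 1119 TPM in WT and 1086 TPM in *Ltf*-KO SCs on average. With 6 points and so many genes compared, 122 genes reached a correlation of at least 0.9, so this is a description only.

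In the endothelial list *Egfl7* was the 1 tested gene of 5 with a limma unadjusted p under 0.05, beside 3.78% of all tested genes. It was at 2.51 ± 0.714 TPM in WT and 4.55 ± 1.23 TPM in *Ltf*-KO (SD, n = 3 each). The log2 fold change was 0.66 (limma unadjusted p = 0.0204, adjusted p = 0.999). Its groups overlapped, with WT replicate 3 at 3.3 TPM and *Ltf*-KO replicate 3 at 3.29 TPM, and its exact permutation p was 0.2.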
